A study of Mus musculus with 42 samples.

Results

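Polyamine metabolism was described here through 9 genes, Smox, Amd1, Amd2, Odc1, Sat1, Srm, Sms, Oaz1 and Azin1, out of 13809 genes in the table of normalized counts. The genes were chosen by name, and each had 1 row in the table. The set was put together after Smox and Amd2 had been seen among the largest falls on immobilization, so the contrasts of immobilized with basal muscle are given below as a description, with no p-values, and counts past a threshold there stand only beside the share of all genes. RNAseq had been run on TA (tibialis anterior) muscles of male C57BL/6J mice aged 4 months, in 42 libraries that fall into 11 groups and 2 sets. Set 1 held WT muscles (4 basal, 3 immobilized), Sesn1SkM-Tg muscles (4 basal, 3 immobilized) and Sesn2SkM-Tg muscles (4 basal, 4 immobilized). Set 2 held WT muscles (4 basal, 4 immobilized, 4 denervated) and Sesn1KO muscles (4 basal, 4 immobilized).

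Immobilization fixed the right hindlimb with rigid sticks and bandage for 3 days, and denervation removed a piece of the sciatic nerve 3 days before the muscle was taken. Basal muscles came from separate mice that had neither procedure. Sesn1SkM-Tg mice carry a human Sesn1 cDNA under the muscle creatine kinase (MCK) promoter, which acts in muscle fibers. Sesn2SkM-Tg mice carry a tetracycline-regulated Sesn2 transgene that is switched on by a transactivator under the same promoter, and Sesn1KO mice (labelled Sesn1-/-) lack Sesn1 in the whole body. The WT muscles of set 1 served here as the control of both transgenic lines. The paper names non-transgenic littermates as controls for each line, but the labels do not say from which line these WT muscles came. A line or litter difference can therefore not be told apart from the transgene. The labels call the libraries replicates without naming the animals, so p-values measure the spread between these libraries, which may be technical in part.

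Polyamines (putrescine, spermidine and spermine) are small positively charged molecules that bind nucleic acids and are needed for growth and translation. Odc1 encodes ornithine decarboxylase, which makes putrescine. Amd1 and Amd2 encode S-adenosylmethionine decarboxylase, which makes the aminopropyl donor that spermidine synthase (Srm) and spermine synthase (Sms) add to putrescine and spermidine. Smox encodes spermine oxidase, which turns spermine back into spermidine, and Sat1 encodes the acetyltransferase that marks polyamines for breakdown and export. Oaz1 encodes antizyme, which binds ornithine decarboxylase and sends it to the proteasome, and Azin1 encodes the antizyme inhibitor that frees it. In skeletal muscle, Smox is known as a gene that falls in several forms of atrophy.

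All 9 identifiers were found in GENCODE M21 on GRCm38, each as a protein-coding gene. Amd1 (chr10:40287458-40302186, minus strand) and Amd2 (chr10:35708675-35711892, minus strand) lie 4.58 Mb apart on chromosome 10. The longest Amd1 transcript has 8 exons and 3204 bases, while the Amd2 transcript has 1 exon and 3218 bases. Their coding sequences, both 1002 bases long, differed at 1 base, an identity of 99.9%. Of the 3189 windows of 30 bases in the Amd2 transcript, the shortest read the study kept, 2909 (91.2%) were also present in an Amd1 transcript. The stretch with the differing base is shown because it is the only place in the coding sequence where a read can tell the copies apart. It covers coding bases 766 to 825, with the base that differs, at 796, in capitals.
Amd1: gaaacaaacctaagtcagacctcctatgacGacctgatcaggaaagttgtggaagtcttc
Amd2: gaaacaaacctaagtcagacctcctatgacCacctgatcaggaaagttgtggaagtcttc

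The values of Amd1 and Amd2 are therefore uncertain as a split between near-identical copies, and their sum is given beside them. The promoter windows of the pair are shown for the contrast with their transcripts. They run from 250 bases before to 50 bases after the gene start in RefSeq (GRCm38.p6), at chr10:40302139-40302438 for Amd1 and chr10:35711842-35712141 for Amd2, both on the minus strand. The longest run of letters the windows share, 48 bases, is in capitals. It begins at base 3 after the start in Amd1 and at base 1 in Amd2, so the capitals lie within the transcripts.
Amd1 promoter: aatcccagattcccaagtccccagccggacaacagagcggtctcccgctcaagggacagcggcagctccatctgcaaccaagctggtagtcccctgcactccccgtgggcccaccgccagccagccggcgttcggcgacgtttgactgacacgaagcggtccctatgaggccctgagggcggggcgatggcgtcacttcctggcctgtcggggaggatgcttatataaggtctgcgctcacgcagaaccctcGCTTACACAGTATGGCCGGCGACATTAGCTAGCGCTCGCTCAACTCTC
Amd2 promoter: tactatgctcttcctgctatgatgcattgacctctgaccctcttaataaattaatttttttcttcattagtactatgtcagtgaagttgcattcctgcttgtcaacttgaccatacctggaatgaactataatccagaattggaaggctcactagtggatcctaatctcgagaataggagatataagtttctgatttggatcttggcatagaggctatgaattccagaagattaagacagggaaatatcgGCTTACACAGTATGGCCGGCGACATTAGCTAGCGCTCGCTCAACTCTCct

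The windows of Smox (chr2:131491612-131491911, plus strand) and Odc1 (chr12:17544623-17544922, plus strand) are shown because these genes had the lowest and the highest values after denervation relative to basal muscle among the members with a called change, other than the Amd pair.
Smox promoter: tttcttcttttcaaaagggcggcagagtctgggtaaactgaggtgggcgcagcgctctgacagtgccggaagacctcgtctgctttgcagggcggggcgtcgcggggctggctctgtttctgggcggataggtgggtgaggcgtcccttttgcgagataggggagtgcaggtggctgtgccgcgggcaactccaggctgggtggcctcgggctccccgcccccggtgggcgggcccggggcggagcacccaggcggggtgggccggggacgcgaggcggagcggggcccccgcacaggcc
Odc1 promoter: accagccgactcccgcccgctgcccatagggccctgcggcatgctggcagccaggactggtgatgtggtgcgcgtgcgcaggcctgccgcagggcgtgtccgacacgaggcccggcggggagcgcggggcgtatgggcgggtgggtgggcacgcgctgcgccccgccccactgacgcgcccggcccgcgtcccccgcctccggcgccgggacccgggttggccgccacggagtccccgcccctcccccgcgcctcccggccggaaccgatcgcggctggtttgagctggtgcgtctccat

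The promoter table held 8 windows for 7 of the members and none for Srm and Azin1. They were searched on both strands for the E-box CACGTG, the FoxO motif TGTTTAC, the ATF4 element TGATGNAA, the cyclic AMP response element TGACGTCA and the TATA box TATAAA. The E-box was found in 1 window of Sms, with its first base 196 bases before the gene start, and in 7.15% of all 32851 windows. The TATA box was found in Oaz1, with its first base 3 bases before the start, and in 13.6% of all windows. The FoxO motif (3.65% of all windows), the ATF4 element (3.97%) and the cyclic AMP response element (1.79%) were found in none of the 8 windows, which says only that these letters are not there.

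As quality values, the normalized counts of a library summed to between 722430 and 1276769, and libraries of the same group had correlations from 0.959 to 0.991 (log2 scale). The denervated libraries summed to 722430 to 811541, below the 1042064 to 1099736 of basal WT muscle in set 2. Sesn1 read 41.6 to 77.6 in basal Sesn1SkM-Tg muscle against 15.0 to 22.1 in basal WT muscle, and Sesn2 read 6.54 to 13.0 in basal Sesn2SkM-Tg muscle against 2.18 to 3.39. In set 2, Sesn1 read 8.41 to 10.0 in basal Sesn1KO muscle against 22.5 to 29.7 in basal WT muscle, while in immobilized muscle the ranges overlapped (19.4 to 37.3 in Sesn1KO, 30.7 to 53.1 in WT). Loss of Sesn1 was thus not seen at the RNA level in every library labelled immobilized Sesn1KO, and the values of that group below are those of the libraries so labelled. All 8 muscle fiber markers (Ckm, Acta1, Myh1, Myh2, Myh4, Myh7, Tnnt3 and Tnni2) were present in every group.

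In basal WT muscle of set 2, Amd1 had the highest level per kb of exon, with a normalized count of 395 ± 146 per kb (SD, n = 4). Oaz1 followed at 135 ± 10.0 per kb, below every Amd1 library. Smox came next at 86.1 ± 47.9 per kb, with a range that overlapped that of Oaz1. Odc1 (20.1 ± 6.50 per kb) and Sms (18.1 ± 2.58 per kb) came next, also with overlapping ranges. Azin1 (6.15 ± 0.804 per kb), Sat1 (4.63 ± 1.14 per kb), Amd2 (3.19 ± 2.52 per kb) and Srm (2.56 ± 0.289 per kb) were lowest, and each overlapped with the next. In denervated muscle the order differed. Odc1 had the highest level (145 ± 19.2 per kb), with a range that overlapped that of Oaz1 (117 ± 10.2 per kb), and Amd1 stood at 50.7 ± 8.04 per kb, below every Oaz1 library.

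**Figure D1:**
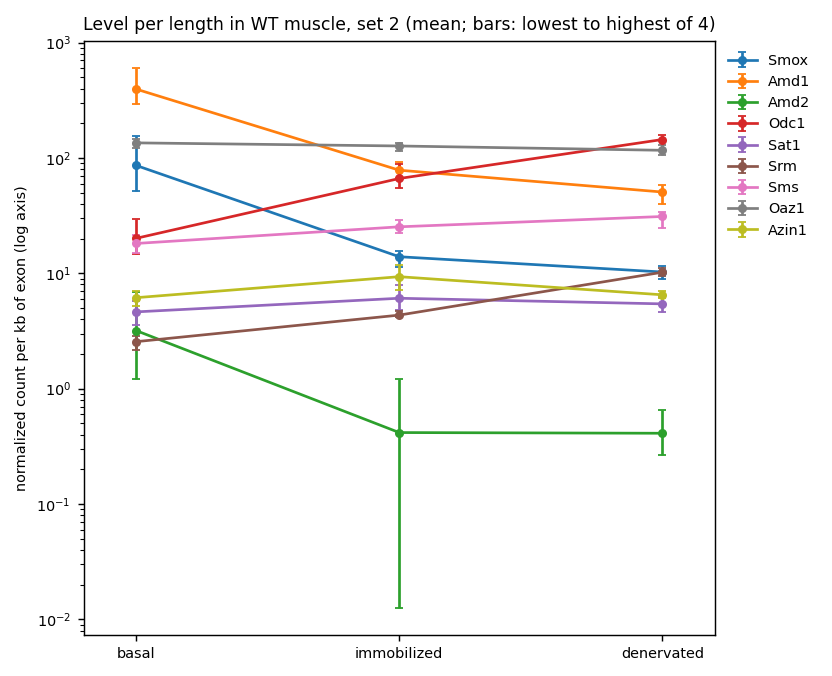
Level of each polyamine gene in WT muscle of set 2, as the normalized count per kb of exon on a log axis, in basal, immobilized and denervated muscle. Points are means of 4 libraries and bars run from the lowest to the highest. Amd1 drops from 395 to 50.7 per kb between basal and denervated muscle while Odc1 climbs from 20.1 to 145 per kb.

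The first comparison asked how the genes differed between denervated and basal WT muscle of set 2. Denervation was not the contrast used to choose the members, but its basal libraries are also those of the set 2 immobilization comparison, so it is not independent of the choice of Smox and Amd2. The values of these genes are therefore a description here, without p-values. An Amd1 transcript held 91.2% of the 30-base windows of Amd2. The p-values of Amd1, here and below, are therefore not independent of the choice of Amd2 either. A gene was called when its Benjamini-Hochberg adjusted p from limma, fitted on log2(value + 1), was under 0.05 and its log2 fold change was 0.25 or more in either direction. Of the 9 members, 6 were called, Smox and Amd2 among them. The 3 called higher stood beside 27.8% of all genes tested, and the 3 called lower beside 27.7%. The count of members was near that background and is no result about them, so the sizes of the changes are described. The members had a median log2 fold change of 0.09 and all 13629 genes tested one of -0.03.

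Odc1, the enzyme that opens the pathway, rose. It read 67.7, 56.02, 50.3 and 99.8 normalized counts in the 4 basal libraries and 399, 544, 495 and 531 in the 4 denervated libraries. Every denervated library was above every basal one, and the mean was 7.19-fold higher. The log2 fold change was 2.87 (standard error 0.18, limma adjusted p = 3.1e-11). Srm, which makes spermidine, read 4.601, 4.04, 4.22 and 3.49 in basal and 17.1, 15.2, 17.7 and 15.4 in denervated muscle. The groups did not overlap, and the log2 fold change was 1.77 (standard error 0.15, limma adjusted p = 3.1e-09). Sms, which makes spermine, read 111, 107, 90.2 and 128 in basal and 149.9, 189.9, 206 and 202 in denervated muscle. Its rise was smaller, at a log2 fold change of 0.77 (standard error 0.16, limma adjusted p = 0.00040), and again without overlap.

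The decarboxylase that supplies the aminopropyl groups moved the other way. Amd1 read 1362, 1052, 1040.2 and 2146 in basal muscle and 140.1, 208, 181 and 189 in denervated muscle. Every denervated library was far below the lowest basal one, and the log2 fold change was -2.90 (standard error 0.28, limma adjusted p = 2.4e-08). Amd2 read 3.89, 6.15, 8.97 and 22.02 in basal and 1.00, 2.09, 0.854 and 1.34 in denervated muscle. Its log2 fold change was -2.06 (standard error 0.50), with values near 1 where the added count of 1 understates the change. Summed over both copies, the level was 7.80-fold lower after denervation, with means of 1410.3 ± 526 and 181 ± 28.9 (SD, n = 4). The difference of the summed level was -2.91 on the log2 scale. The Amd2 share of the sum was 0.684% ± 0.321 in basal and 0.720% ± 0.215 in denervated muscle (SD, n = 4 each), a difference of 0.0358 percentage points. The sum and the share both hold Amd2, so they are a description, without p-values.

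Smox, which oxidizes spermine, fell with Amd1. It read 300.05, 231, 202 and 608 in basal and 36.2, 44.9, 34.9 and 43.9 in denervated muscle. The groups did not overlap, the mean was 8.39-fold lower, and the log2 fold change was -2.90 (standard error 0.35). The basal library with 608 for Smox, replicate 4, was also the highest of its group for Amd1, Amd2, Odc1, Sms, Oaz1 and Azin1. It was the lowest for Sat1 and Srm.

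The remaining members did not pass. Sat1, the acetyltransferase, read 10.4, 15.2, 15.9 and 9.87 in basal and 15.9, 12.9, 14.1 and 17.3 in denervated muscle (log2 fold change 0.24, 95% interval -0.26 to 0.73, limma adjusted p = 0.41). Azin1 had means of 38.5 ± 5.03 and 40.7 ± 3.33 (SD, n = 4) and a log2 fold change of 0.09 (interval -0.37 to 0.55, limma adjusted p = 0.76). Oaz1 had means of 346 ± 25.7 and 298 ± 26.2 (SD, n = 4) and a log2 fold change of -0.21 (interval -0.42 to -0.01, limma adjusted p = 0.074). These 3 depended on how libraries were scaled. With every library scaled to the same sum, the median of all genes moved up by 0.37 on the log2 scale and the genes called became 6353 higher and 1886 lower, against 3792 and 3775. The values of Sat1 (0.68, limma adjusted p = 0.021), Azin1 (0.54, adjusted p = 0.027) and Oaz1 (0.25, adjusted p = 0.012) were then called, and Oaz1 had changed sign. Over 21 alternatives Oaz1 was called in 3, with values from -0.27 to 0.25, so its call did not depend on scaling alone. The calls of Odc1, Srm and Amd1 were kept under all 21 alternatives, in the same direction. That of Sms was kept under 20 and lost at a log2 fold change threshold of 1. Smox and Amd2 stayed below 0 under all 21, which is a description.

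Markers of cells other than fibers moved with these groups, and their part in the results was not tested. The summed level of 7 macrophage and leukocyte markers (Ptprc, Cd68, Csf1r, Lyz2, Cd163, Mrc1 and Itgam) was 49.1 to 126 in denervated and 35.4 to 149 in basal WT muscle of set 2, so the ranges overlapped. Endothelial markers were lower in denervated muscle (120 to 150, against 240 to 306, 4 markers), as were 4 Schwann cell markers (11.3 to 13.5, against 20.2 to 40.1), and the muscle fiber markers summed to 47850 to 63101 against 119142 to 129475. In whole muscle, fewer cells of a type and less RNA per cell cannot be told apart.

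**Figure D2:**
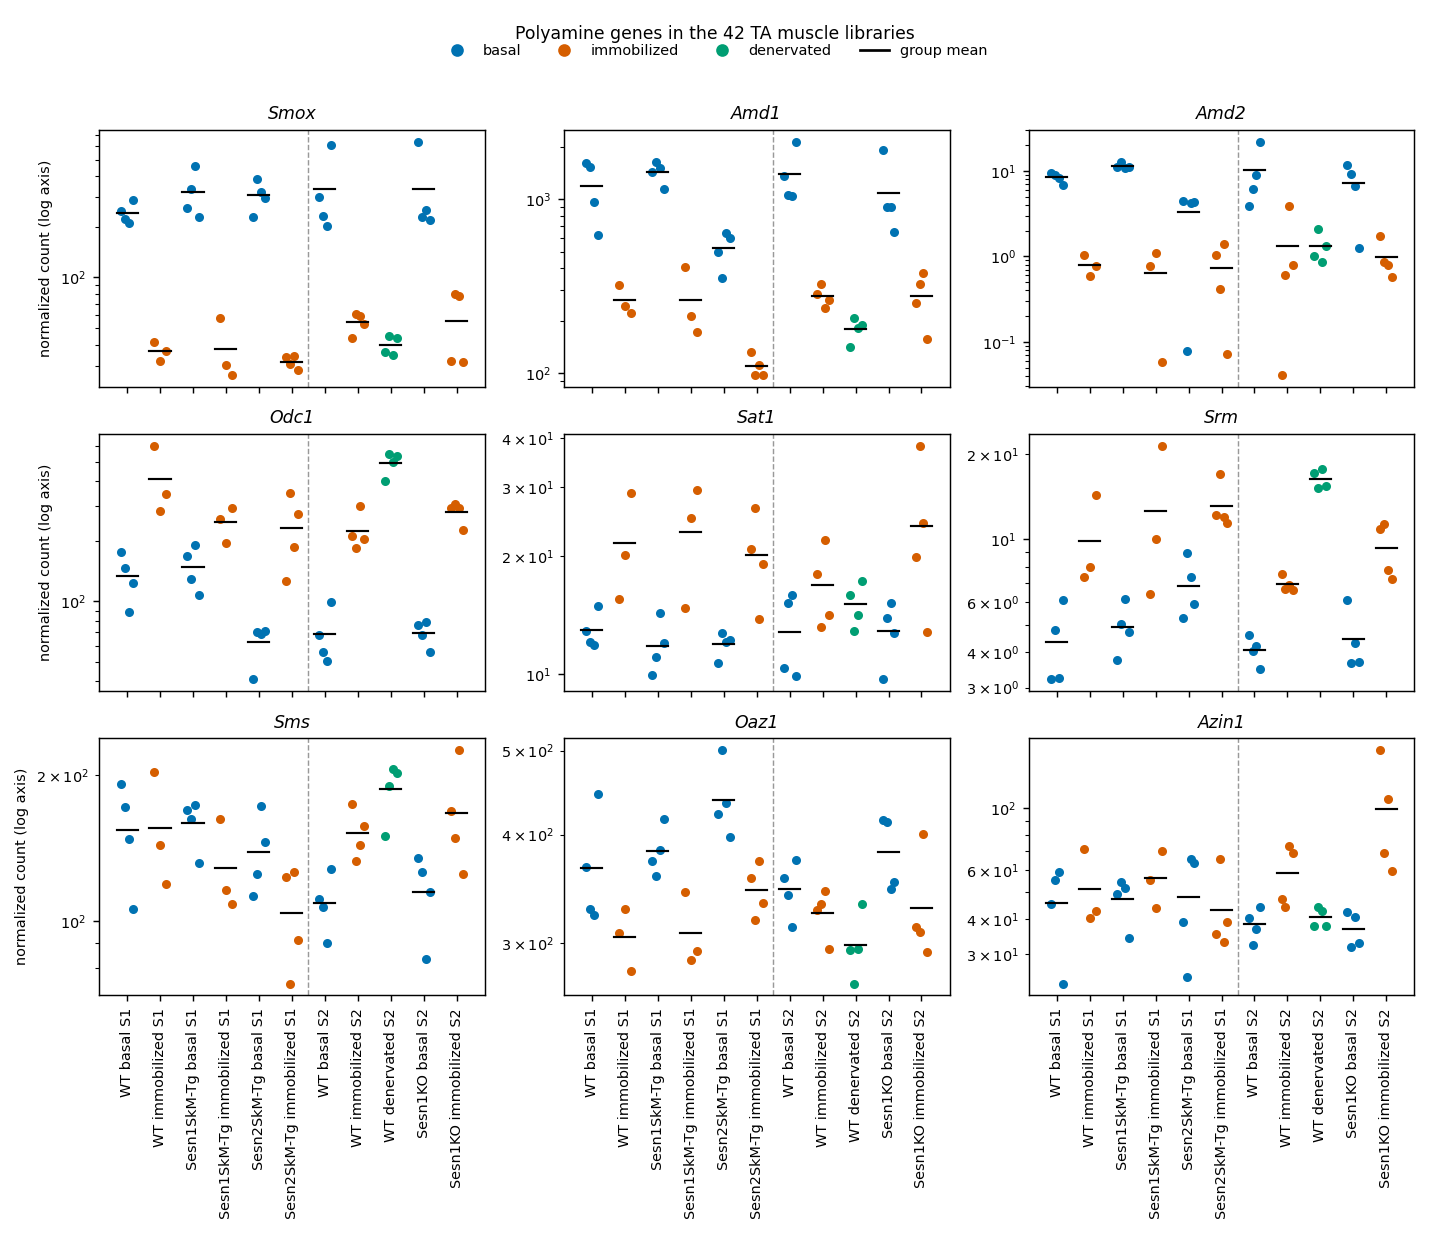
Normalized count of the 9 polyamine genes in each of the 42 libraries, on log axes, by group. Points are libraries, black lines are group means, and the dashed line separates set 1 (S1) from set 2 (S2). All denervated libraries lie above all basal WT libraries of set 2 for Odc1, Srm and Sms and below them for Smox, Amd1 and Amd2. Of all genes tested, 27.8% were called higher and 27.7% lower in this contrast. The share of all genes without overlap is not given.

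The second comparison set denervated against immobilized WT muscle of set 2, both 3 days after the procedure. The immobilized libraries are those of the contrast in which Smox and Amd2 were picked, so the values of these genes are a description here. Of the members, 2 were called higher, beside 20.5% of all genes tested, and 0 were called lower, beside 18.4%. At an unadjusted p under 0.05 there were 4 members, beside 47.6% of genes. Odc1 read 212, 186, 302 and 205 in immobilized muscle, and its 4 denervated libraries were all higher, from 399 to 544 (log2 fold change 1.13, standard error 0.18, limma adjusted p = 3.4e-05). Srm read 7.54, 6.69, 6.89 and 6.65 in immobilized muscle, against 15.2 to 17.7 in denervated muscle (1.12, standard error 0.15, limma adjusted p = 4.9e-06). Amd1 read 284, 326, 237 and 263 in immobilized muscle, above every denervated library, but the difference did not pass (log2 fold change -0.63, interval -1.22 to -0.04, limma adjusted p = 0.083). Azin1 behaved alike, with 44.4 to 73.2 in immobilized and 37.9 to 44.4 in denervated muscle (-0.48, interval -0.94 to -0.02, limma adjusted p = 0.090). The log2 difference was 0.29 for Sms (interval -0.05 to 0.63), and -0.43 for Smox and 0.21 for Amd2. With every library scaled to the same sum, the median of all genes moved up by 0.28 and the genes called became 5499 higher and 1183 lower, against 2789 and 2508. Sms was then called too (0.63, limma adjusted p = 0.00072), Odc1 and Srm stayed called, and Amd1 stood at -0.29 and Azin1 at -0.15. With only these groups in the fit, 5 members were called. Immobilized libraries held markers of leukocytes at 116 to 221, against 49.1 to 126 after denervation, and Schwann cell markers at 14.7 to 25.2, above the 11.3 to 13.5 after denervation. Their part in the differences was not tested.

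The effect of immobilization was described in 5 pairs of groups. The falls of Smox and Amd2 in these contrasts had been used to choose the set, and no test of them is given. In WT muscle of set 1, Smox read 248, 221, 211 and 287 in basal and 41.2, 31.9 and 36.7 in immobilized muscle. In set 2 the immobilized libraries read 43.9, 60.7, 59.5 and 52.9. The log2 fold change of Smox was -2.69 in WT and -3.08 in Sesn1SkM-Tg and -3.22 in Sesn2SkM-Tg muscle of set 1, and -2.48 in WT and -2.56 in Sesn1KO muscle of set 2. In all 5 pairs the groups of Smox did not overlap. Amd1 had log2 fold changes of -2.10, -2.53, -2.22, -2.27 and -1.93 in the same order, also without overlap. Amd2 had -2.39, -3.00, -1.12, -2.27 and -1.82, and its basal and immobilized libraries overlapped in Sesn2SkM-Tg muscle and in both genotypes of set 2. Its immobilized group means ran from 0.639 in Sesn1SkM-Tg to 1.34 in WT muscle of set 2, where the added count of 1 understates the change.

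Every immobilized library of Odc1 lay above every basal library of its pair, with log2 fold changes of 1.57, 0.75, 1.81, 1.73 and 1.99 in that order of pairs. Its immobilized libraries of WT muscle read 599, 284 and 346 in set 1, against 178, 148, 88.6 and 124 in basal muscle. Srm followed with 1.01, 1.06, 0.85, 0.65 and 0.92. Sat1 had values of 0.66, 0.87, 0.67, 0.37 and 0.75, from basal levels between 9.70 and 15.9 normalized counts. The signs of Sms were mixed, at 0.01, -0.32, -0.43, 0.48 and 0.52, with positive values in the pairs of set 2 and values near or under 0 in those of set 1. Oaz1 ranged from -0.34 to -0.09. Azin1 ranged from -0.10 to 1.30, with the highest value in Sesn1KO muscle.

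Counts of members past the thresholds are given beside the share of all genes that passed, and nothing is read from them. In WT muscle of set 1, 3 members were higher and 3 lower, beside 14.9% and 14.5% of genes. In Sesn1SkM-Tg muscle, 2 were higher and 3 lower, beside 18.2% and 16.5%. In Sesn2SkM-Tg muscle, 3 were higher and 4 lower, beside 15% and 15.7%. In WT muscle of set 2, 3 were higher and 3 lower, beside 16.2% and 17.7%, and in Sesn1KO muscle 5 were higher and 3 lower, beside 17.2% and 19.9%. In set 1, scaling the libraries to the same sum moved the median of all genes by 0.25 to 0.27, and by 0.09 to 0.10 in set 2. Leukocyte markers stood at 201 to 391 in immobilized and 39.6 to 63.8 in basal WT muscle of set 1, and their part in these values was not tested.

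**Figure D3:**
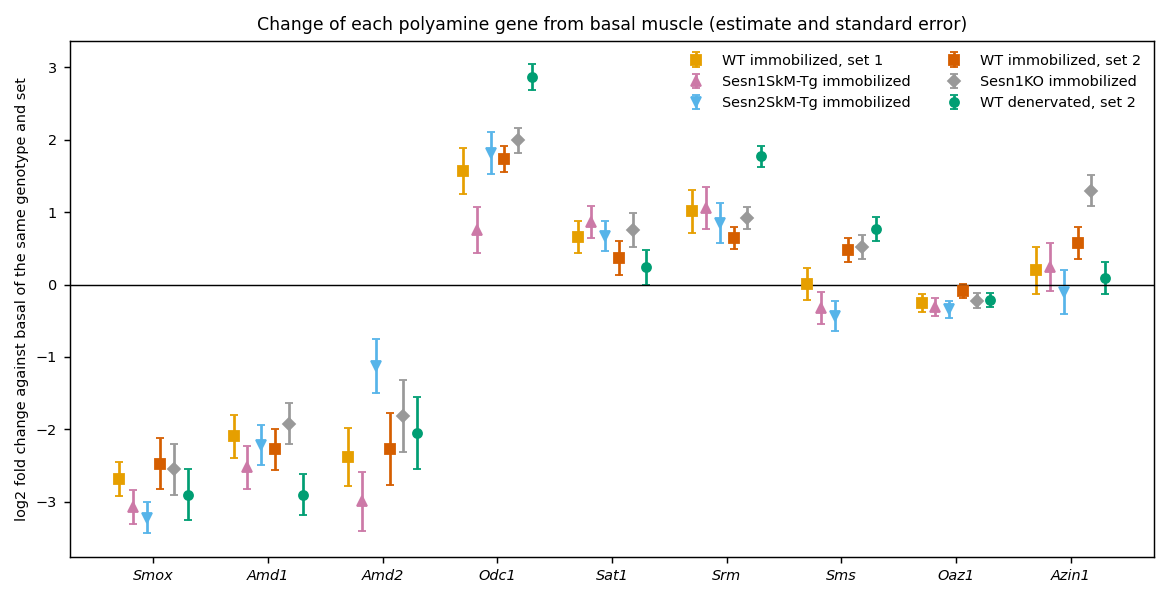
Log2 fold change of each polyamine gene against basal muscle of the same genotype and set, as estimate and standard error, for 5 immobilization pairs and denervation. Smox, Amd1 and Amd2 lie below 0 in all 6 contrasts and Odc1 and Srm above 0, with Odc1 highest after denervation (2.87).

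The relation of the enzymes that feed the pathway also differed between states. Per kb of exon, the ratio of Odc1 to Amd1 lay between 0.0484 and 0.0554 in basal WT muscle of set 2 (4 libraries) and was 2.73 to 2.96 in the 4 denervated libraries. In immobilized WT muscle it was 0.592 to 1.32 in set 2 and 1.21 to 1.96 in set 1. In the other basal groups it ran from 0.0416 in Sesn1KO muscle to 0.209 in Sesn2SkM-Tg muscle. Thus Amd1 was above Odc1 in each of the 20 basal libraries, and Odc1 was above Amd1 in each of the 4 denervated ones. Odc1 exceeded Amd1 in 11 of the 18 immobilized libraries. These ratios combine changes already given for both genes and are a description.

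**Figure D4:**
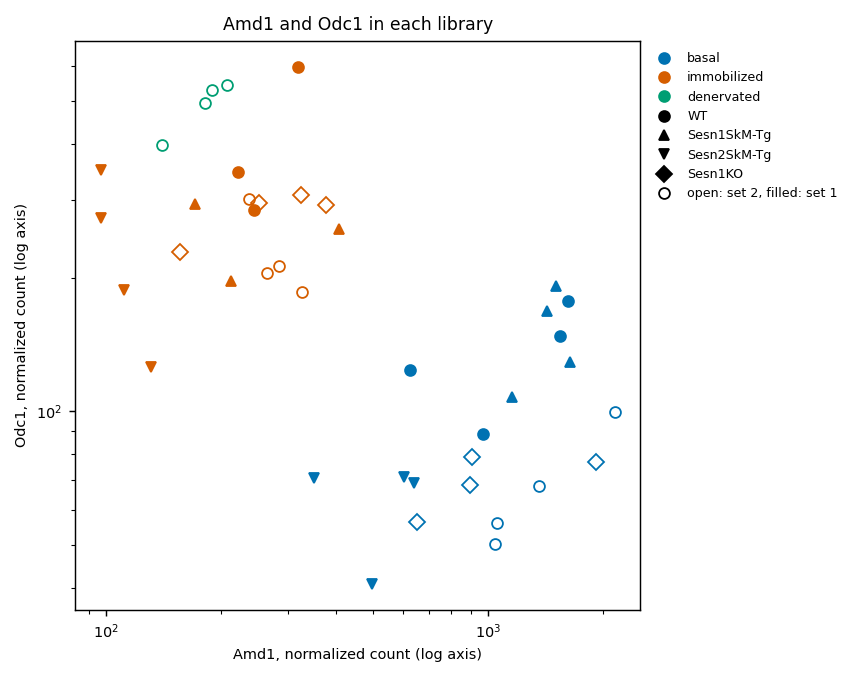
Normalized count of Amd1 (x axis) and Odc1 (y axis) in each library, both on log axes. Colours mark basal, immobilized and denervated muscle, shapes the genotype, and open symbols set 2. Basal libraries lie toward the lower right, and the 4 denervated libraries toward the upper left with Odc1 between 399 and 544. Immobilized Sesn2SkM-Tg libraries lie farther left (Amd1 96.7 to 131). Replicate 1 of immobilized WT muscle in set 1 lies higher (Odc1 599).

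The genotype comparisons asked whether sestrin gain or loss shifted the members. They share their libraries with the immobilization contrasts that chose Smox and Amd2. In Sesn1SkM-Tg against WT muscle, 0 members were called in basal (beside 0.0292% of genes) and 0 in immobilized muscle (beside 0.0073%), and 0 reached an unadjusted limma p under 0.05 in either (beside 3.63% and 3.04%). The interval of Amd1 in basal muscle ran from -0.21 to 0.93. Smox had a log2 fold change of 0.36 there, which is a description. In Sesn1KO against WT muscle, 0 members were called in basal (beside 0.147%) and 0 in immobilized muscle (beside 0.947%). At an unadjusted limma p under 0.05 there were 0 and 2, beside 4.64% and 14.1% of genes. The latter were Srm (0.35, interval 0.04 to 0.67) and Azin1 (0.68, interval 0.22 to 1.13, adjusted p = 0.15). Azin1 read 161, 68.8, 107 and 59.7 in immobilized Sesn1KO muscle and 47.4, 44.4, 73.2 and 68.9 in immobilized WT muscle, so the groups overlapped. Without replicate 4 of the immobilized Sesn1KO muscles Azin1 was called (0.88, limma adjusted p = 0.022), and over its 21 alternatives the adjusted p ran from 0.022 to 0.59.

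Amd1 was lower in Sesn2SkM-Tg than in WT muscle in both states. In basal muscle it read 496, 351, 640.4 and 602 in the transgenic line and 1617, 1541, 969.6 and 625 in WT muscle. The mean was 2.28-fold lower, and the lowest WT library lay inside the transgenic range. The log2 fold change was -1.12 (standard error 0.27, limma adjusted p = 0.029). In immobilized muscle Amd1 read 131, 97.2, 111 and 96.7 against 319, 244 and 222 in WT muscle. These groups did not overlap, and the log2 fold change was -1.25 (standard error 0.30, limma adjusted p = 0.027). Of the members, 1 was called in each state, beside 2.5% of genes in basal and 2.94% in immobilized muscle. In immobilized muscle, 5 fibroblast markers summed to 362 to 749 in Sesn2SkM-Tg and 757 to 1362 in WT libraries, without overlap, while leukocyte markers (90.7 to 257, against 201 to 391) overlapped. In basal muscle, 4 adipocyte markers summed to 1.71 to 3.69 against 3.96 to 37.3, again without overlap. Sesn1 was also lower in basal Sesn2SkM-Tg than in basal WT muscle, as given above. The part of these markers and of Sesn1 in the differences of Amd1 was not tested.

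Both calls of Amd1 depended on single libraries. In basal muscle the adjusted p ran from 0.0028 to 0.16 over 21 alternatives and Amd1 was not called in 6 of them, among them the fit of only the compared groups (0.16). It was also lost without replicate 1 or 2 of the basal Sesn2SkM-Tg muscles or without replicate 1, 2 or 3 of the basal WT muscles (limma adjusted p of 0.052 to 0.13). In immobilized muscle it was lost without any library other than replicate 1 of the transgenic muscles (6 of 7 omissions, limma adjusted p of 0.055 to 0.10), while over all 20 alternatives the adjusted p ran from 0.0086 to 0.10.

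Odc1 stood close to the threshold in basal Sesn2SkM-Tg muscle. Odc1 read 40.8, 70.6, 68.9 and 71.1, below all WT libraries (88.6 to 178), with a log2 fold change of -1.08 (interval -1.68 to -0.47, limma adjusted p = 0.051). Amd2 read 4.47, 0.0780, 4.23 and 4.36 against 6.94 to 9.56 in WT muscle, a log2 fold change of -1.39. These libraries also enter the immobilization contrasts that chose Amd2, so its value is a description. Over 21 alternatives it ran from -2.39 to -0.81. At an unadjusted limma p under 0.05, 5 members (Amd2 among them) differed in basal and 3 in immobilized muscle, beside 15.6% and 19.2% of genes. In basal muscle Amd1, Amd2 and Odc1 were lower, while Srm (0.57) and Oaz1 (0.27) were higher. In immobilized muscle Amd1, Odc1 (-0.83) and Sms (-0.57) were lower. Muscle fiber markers summed to 126737 to 146767 in basal Sesn2SkM-Tg and 109240 to 135769 in basal WT muscle, and their part in these differences was not tested.

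Whether immobilization acted differently in a genotype was fitted as an interaction. No member was called for Sesn1SkM-Tg minus WT (beside 0% of genes), Sesn2SkM-Tg minus WT (beside 0.0073%) or Sesn1KO minus WT (beside 0.022%), so 0 members were called by limma in each, with 0, 1 and 1 at an unadjusted p under 0.05, beside 2.93%, 7.35% and 7.98% of genes. These differences are built from the immobilization effects that chose Smox and Amd2, whose values are therefore a description. For Sesn1SkM-Tg, Sesn2SkM-Tg and Sesn1KO in turn they were -0.39, -0.53 and -0.08 for Smox and -0.61, 1.27 and 0.45 for Amd2. Immobilized Amd2 read 0.0725 to 1.39 in Sesn2SkM-Tg and 0.584 to 1.05 in WT muscle of set 1. At such values the added count of 1 understates a change. Replicate 2 of the basal Sesn2SkM-Tg muscles read 0.0780. For Sesn1KO minus WT, Azin1 had the largest difference (0.73, interval 0.08 to 1.38, limma adjusted p = 0.57), and Odc1 had 0.26 (interval -0.27 to 0.78). The WT effects of set 1 and set 2 were also compared. No member was called, beside 6.2% of 13763 genes, and 0 passed an unadjusted limma p of 0.05, beside 22.4% of genes. The difference was -0.47 for Sms (interval -1.05 to 0.11) and -0.16 for Odc1 (interval -0.93 to 0.60).

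The wider pathway was read after denervation from a list of 41 other polyamine, methionine cycle and salvage genes, of which 32 were tested. Of these, 18 were called, 9 higher and 9 lower, with a median log2 fold change of -0.07, against -0.03 for all genes. With 27.8% of all genes higher and 27.7% lower in this contrast, the counts of this list and of its parts below are near the background and are no result about the pathway, so single genes are described. Among 19 tested genes of polyamine transport, precursor supply, catabolism and hypusination, 5 were higher and 5 lower. Atp13a3, a polyamine transporter, rose from 27.5 ± 1.84 to 213 ± 48.8 normalized counts (SD, n = 4; log2 fold change 2.88, limma adjusted p = 9.0e-12). Aldh18a1, which makes proline and ornithine precursors, rose from 3.48 ± 1.06 to 11.4 ± 1.79 (1.49, adjusted p = 1.4e-06). Slc7a1, the carrier of arginine and ornithine, rose from 2.29 ± 0.234 to 6.94 ± 0.838 (1.27, adjusted p = 3.9e-07). Eif5a, the translation factor that carries the spermidine-derived hypusine, rose from 249 ± 15.6 to 482 ± 31.9 (0.95, adjusted p = 4.9e-08).

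Oat, the ornithine aminotransferase, fell from 192 ± 11.7 to 86.7 ± 17.4 (SD, n = 4; log2 fold change -1.16, limma adjusted p = 2.8e-08). Cav1, a caveolar protein linked to polyamine uptake and mainly expressed by endothelial and fat cells, fell from 174 ± 16.6 to 82.8 ± 15.8 (-1.07, adjusted p = 4.4e-06), in the groups in which endothelial markers were also lower. In set 1 Cav1 had group means of 99.2 in basal and 169 in immobilized WT muscle. The part of endothelial or fat cells in these values was not tested. Oaz2, a second antizyme gene, had a log2 fold change of -0.53 (adjusted p = 0.00050), Dohh, which completes hypusine, one of -0.37 (adjusted p = 0.011), and the transporter Atp13a2 one of -0.90 (adjusted p = 2.3e-06). Of 13 methionine cycle and salvage genes, 4 were higher and 4 lower, beside 27.8% and 27.7% of all genes, and nothing is read from these counts. Got1, an aminotransferase that can close the salvage pathway, fell from a mean of 519 to 147 ± 12.3 (-1.82, adjusted p = 2.6e-12), and Apip, a salvage dehydratase, from 18.3 ± 0.925 to 8.67 ± 1.10 (adjusted p = 1.0e-06). Mat2a, which makes S-adenosylmethionine, had -0.39 (adjusted p = 0.026), and Ahcy, which clears S-adenosylhomocysteine, had 0.82 (adjusted p = 2.1e-05). Under the scaling to the same sum the median of all genes moved by 0.37, so smaller changes in this list depend on the scaling.

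In a list of regulators fixed by name, 3 of 7 tested genes were higher and 1 lower, beside the same 27.8% and 27.7% of all genes, and nothing is read from these counts. Myc, which is known to drive Odc1 transcription, rose from 1.69 ± 0.228 to 17.7 ± 4.23 normalized counts after denervation (SD, n = 4; log2 fold change 2.78, limma adjusted p = 6.9e-10). Foxo1 rose by a log2 fold change of 0.90 (adjusted p = 0.00018) and Atf4 by 0.41 (adjusted p = 0.012), while the coactivator Ppargc1a fell from 46.9 ± 2.01 to 10.8 ± 1.77 (-2.04, adjusted p = 4.5e-09). Foxo3, Max and Mxd4 had values of 0.14, 0.16 and -0.19 and did not pass. No relation between these regulators and the members was tested.

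**Figure D5:**
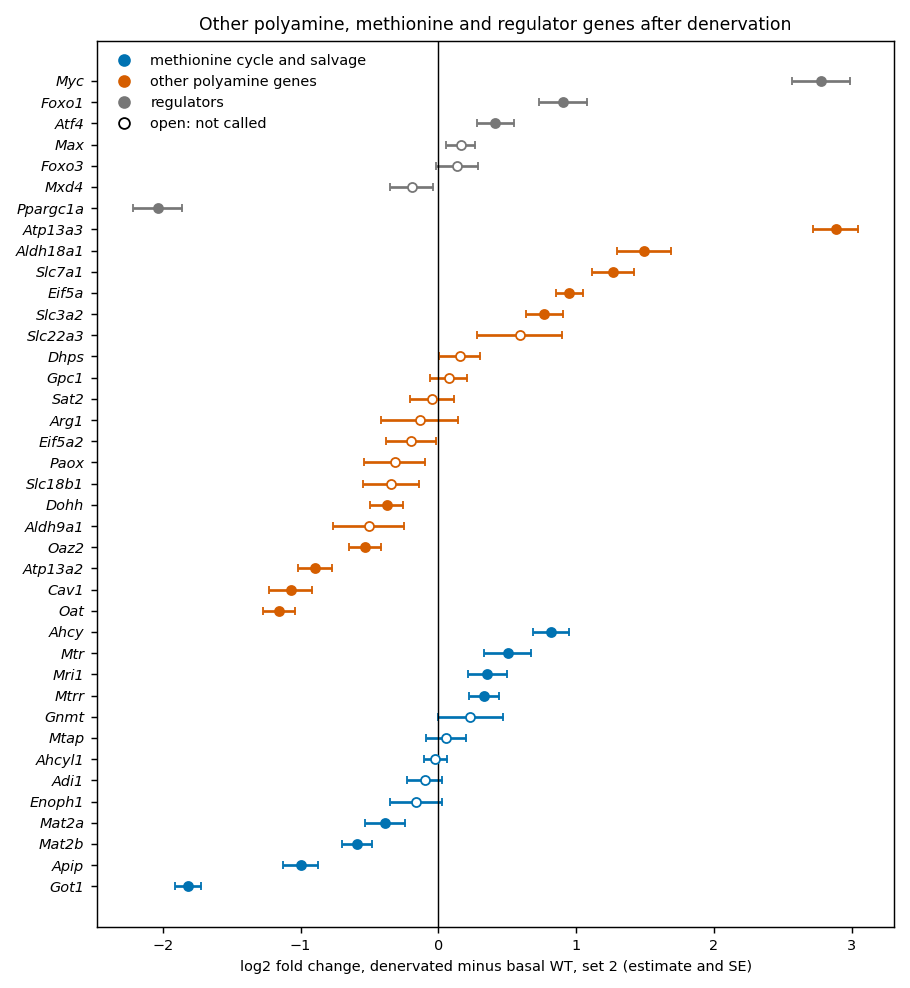
Log2 fold change after denervation (denervated minus basal WT, set 2; estimate and standard error, 4 libraries a group) of 39 tested genes in 3 lists, other polyamine genes, methionine cycle and salvage genes, and regulators. Filled points were called and open points were not. Atp13a3 (2.88) and Myc (2.78) lie farthest to the right and Ppargc1a (-2.04) and Got1 (-1.82) farthest to the left.

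The genes most like a member were taken as those with the highest Pearson correlation on log2(value + 1), using the smaller of the coefficients in set 1 (22 libraries) and set 2 (20 libraries), among 12125 genes. The libraries fall into basal and immobilized or denervated groups, so these coefficients mostly restate the difference between treatments. For Smox they were Gpd1 (0.953), Itm2a (0.938), Ppapdc3 (0.934), Phkg1 (0.929) and Cib2 (0.929). Gpd1, the cytosolic glycerol-3-phosphate dehydrogenase, had group means of 588 and 114 in basal and immobilized WT muscle of set 1. In set 2 they were 799 in basal, 142 in immobilized and 106 in denervated muscle. For Odc1 they were Myf6 (0.907), a myogenic transcription factor, Pir (0.885) and Eda2r (0.880). For Sat1 they were Ubash3b (0.795), the chemokine Ccl2 (0.794) and Arl4c (0.753), lower values than for Smox, Amd1 and Odc1.

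For Amd1 the most alike genes were Cdk19 (0.944), Camk2a (0.937) and Tecpr2 (0.933). Cdk19, a kinase of the Mediator complex, is the nearest listed gene upstream of Amd1. It lies at chr10:40339564-40483818 on the plus strand, 37.4 kb from Amd1, and the genes point away from each other. Its group means were 37.9 and 20.2 in basal and immobilized WT muscle of set 1, and 41.7, 22.1 and 11.7 in basal, immobilized and denervated WT muscle of set 2. After denervation its log2 fold change was -1.74 (standard error 0.17, limma adjusted p = 2.7e-08). In basal Sesn2SkM-Tg muscle Cdk19 had a mean of 20.4 against 37.9 in WT muscle (log2 fold change -0.82, limma adjusted p = 0.056). The other genes of the table within 200 kb of Amd1 were looked up after this was seen. Slc16a10 had coefficients of 0.717 and 0.745, Gtf3c6 of 0.141 and -0.590 and Rpf2 of -0.371 and -0.776 in set 1 and set 2. After denervation Slc16a10 had a log2 fold change of -0.76 (limma adjusted p = 0.00060), Gtf3c6 of 0.41 (adjusted p = 0.016) and Rpf2 of 1.11 (adjusted p = 1.7e-07).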

How the data were processed

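RNA of TA muscle was sequenced by the authors on an Illumina HiSeq instrument from NEBNext Ultra libraries. Per the labels and the paper, reads were checked with FastQC, trimmed with cutadapt 1.7.1 (reads under 30 bases discarded), counted with RSEM 1.2.20 on GRCm38 transcripts and normalized with limma, and edgeR is also listed in the submitters' processing notes. The signal values deposited by the authors are normalized counts on a linear scale. Gene means look adjusted between the sets, so levels were compared within a set. Depth is unknown, and no counting error is given.

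Genes that reached 1 in any library of the set entered the fit (13705 in set 1, 13629 in set 2, all 9 members in both). limma 3.58.1 (R 4.3.3) was run on log2(value + 1), 1 coefficient per group, with eBayes and a trend, and its p-values (two-sided) received Benjamini-Hochberg adjustment over all genes tested. The sets were compared in 1 fit of all 42 libraries. The summed level of Amd1 and Amd2 (on the log2 scale) and the Amd2 share are given as differences of group means. The fits were tested on simulated data. The members and lists were chosen with earlier results of these data known. All 9 members were named, with up to 4 called list genes with the largest rise and up to 4 with the largest fall after denervation, the 5 genes most like Smox and the 3 each most like Amd1, Odc1 and Sat1. Further list genes, regulators and neighbours of Amd1 were named after their values were seen. Alternatives were other filters, pseudocounts, scalings, eBayes settings, samples in the fit, thresholds, a replicate block, and each library left out. Exon lengths come from GENCODE M21 and promoters from RefSeq (GRCm38.p6).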

Additional observations from a re-analysis of the deposited data

Results flagged for a closer look

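Of 81 pairs of a member and a group of 4 libraries, 5 held a library whose gap to the others exceeded Dixon's 95% critical value, a gap that about 1 pair in 20 reaches by chance. Smox read 638 in replicate 1 of the basal Sesn1KO muscles and 219 to 253 in the other libraries. Amd2 read 12.9 in replicate 2 of the basal Sesn1SkM-Tg muscles, against 10.99 to 11.3. Amd2 also read 0.0780 in replicate 2 of the basal Sesn2SkM-Tg muscles, against 4.23 to 4.47 in the others. Odc1 read 40.8 in replicate 1 of the basal Sesn2SkM-Tg muscles, against 68.9 to 71.1. Srm read 17.0 in replicate 2 of the immobilized Sesn2SkM-Tg muscles, against 11.4 to 12.2. No cause of these values was tested.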

How the results depend on the processing

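Of 153 values of a member in a comparison, 42 were called, and none of these changed sign under any of the alternatives, while 29 lost their call under none except the larger fold change threshold. Another 96 values were called under no setting, and 46 of those changed sign under at least 1. Among values called under some setting, Oaz1 after denervation turned from -0.21 to 0.25 with libraries scaled to the same sum and to 0.0152 with quantile normalization, and Azin1 to -0.0025 with quantile normalization. The number of members called moved as follows. Denervated against immobilized muscle gave 5 when the other groups were left out of the fit (2 otherwise). A fold change threshold of 1 gave 4 for immobilized Sesn2SkM-Tg (7 otherwise) and 5 for immobilized Sesn1KO muscle (8 otherwise). Sesn2SkM-Tg against WT in basal muscle (1 called) gave 2 with a filter of 3 libraries or median centring and 0 with only the compared groups.

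With each library left out in turn, the count ran from 0 to 4 in that comparison and from 0 to 1 in immobilized muscle. It ran from 3 to 6 for immobilized Sesn1SkM-Tg muscle, lowest without immobilized replicate 3, and from 3 to 7 for Sesn2SkM-Tg muscle, lowest without immobilized replicate 2. For Sesn1KO against WT immobilized muscle it ran from 0 to 1. The difference of the summed Amd level after denervation ran from -3.03 to -2.68, which is a description. The difference of the Amd2 share ran from -0.0972 to 0.146, below 0 without basal replicate 1 or denervated replicate 2 (-0.0562). With the replicate number as a block, which the labels give but do not tie to shared animals or days, denervation gave 6 members called and immobilization of WT muscle in set 2 gave 7, against 6 without the block. The block changed no other count of members called. Deviations of same-numbered samples from their group means correlated from -0.45 to 0.53 in set 1 and from -0.24 to 0.24 in set 2. The medians were 0.037 and -0.029, against 0.019 and 0.0075 for samples of different numbers. Whether some numbers share an animal or a day was not tested.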
